A study of Rattus norvegicus with 6 samples.

Results

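The transcripts of the insulin-like growth factor gene Igf2 and of 3 genes for IGF binding proteins, Igfbp4, Igfbp5 and Igfbp6, were followed in 3 rat tumor cell lines. The 4 genes were chosen by their low mean log ratio in earlier results of the same arrays, so their ratios against the normal cells are given as a description, with no test. They were taken as every spot whose platform gene symbol was one of these names, which gave 8 of 16128 spots and 4 of 3158 named genes, with 1 clone of 2 spots for each gene. The lines JA, JB and Amy were each derived from an esophageal tumor that arose under reflux. The comparison RNA was a 1:1 mix of 2 rat esophageal cell lines called normal, and the same mix was used on every array. Each line was hybridized against the mix on 2 cDNA arrays that read both dyes, with the line in Cy3 on the first and in Cy5 on the second. The 2 arrays of a line are technical repeats, so a line is 1 replicate and n = 3 lines. The labels name the lines without strain, sex, passage or number of clones, and the mix does not show how its 2 lines differ from each other.

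Insulin-like growth factors are secreted peptides that promote growth and survival through the receptor encoded by Igf1r and through the insulin receptor. The receptor encoded by Igf2r binds Igf2 peptide and delivers it to lysosomes without sending a growth signal. A family of secreted binding proteins holds most of the growth factor outside cells, and each member has its own preference, protease sensitivity and matrix contacts. Igf2 is imprinted: it is read from the paternal chromosome, while its neighbor H19, a long non-coding RNA, is read from the maternal one. In fetal tissue and in mesenchymal cells Igf2 is a major growth signal, and its expression is altered in many tumors.

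All values are log2 ratios of tumor line over normal mix, so -1 is a level of the line 2-fold below that of the mix. The base and the direction were not stated; the base was taken as 2, and the direction is likely, from the order of names in the sample titles. Turning every sign would exchange higher and lower for all genes alike. Array medians lay between -0.15 and -0.05, and the paired spots of a clone correlated at 0.907 to 0.949 over each array. Spot intensities were not used here, so a ratio this far from 0 may be a bound set by a faint tumor channel, and whether it is was not tested. A ratio also cannot tell fewer expressing cells from less RNA per cell.

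Because the 4 genes stood low together, the 150 bases before their start sites are shown, as given by RefSeq for assembly GRCr8 in the direction of transcription, with Igfbp2, the neighbor of Igfbp5 that moved the other way, for contrast. Capitals mark matches on either strand to the letters TATAAA of the TATA box, to CCAAT of the CAAT box, to GGGCGG of the GC box or to TGANTCA of the AP-1 site, motifs that share no letters here. The table held 2 start sites for Igf2, at chr1:207253981-207254130 and chr1:207250476-207250625 on the minus strand. The other windows are chr10:84491321-84491470 on the plus strand for Igfbp4, chr9:81914188-81914337 on the minus strand for Igfbp5, chr7:135154769-135154918 on the plus strand for Igfbp6 and chr9:81864661-81864810 on the plus strand for Igfbp2.
Igf2, start site 1: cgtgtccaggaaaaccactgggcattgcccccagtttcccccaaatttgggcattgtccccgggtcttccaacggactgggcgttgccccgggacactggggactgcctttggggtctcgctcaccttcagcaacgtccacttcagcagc
Igf2, start site 2: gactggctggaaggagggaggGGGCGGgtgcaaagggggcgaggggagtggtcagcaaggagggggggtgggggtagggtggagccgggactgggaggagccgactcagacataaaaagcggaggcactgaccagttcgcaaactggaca
Igfbp4: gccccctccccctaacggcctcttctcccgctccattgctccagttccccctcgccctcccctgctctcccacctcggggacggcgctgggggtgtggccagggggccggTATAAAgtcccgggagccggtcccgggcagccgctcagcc
Igfbp5: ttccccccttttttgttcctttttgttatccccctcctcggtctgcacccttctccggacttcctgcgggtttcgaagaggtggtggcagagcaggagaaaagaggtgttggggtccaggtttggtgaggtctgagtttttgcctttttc
Igfbp6: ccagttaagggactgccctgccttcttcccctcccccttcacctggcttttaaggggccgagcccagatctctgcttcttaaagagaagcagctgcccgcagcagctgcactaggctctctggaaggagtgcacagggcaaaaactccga
Igfbp2: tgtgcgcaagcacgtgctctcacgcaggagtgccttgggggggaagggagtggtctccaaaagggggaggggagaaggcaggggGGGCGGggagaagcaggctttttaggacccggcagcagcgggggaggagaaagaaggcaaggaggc

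No motif was common to the 4 genes. In the 250 bases before the start, the searched letters TATAAA were found in Igfbp4 alone among these windows, 40 to 35 bases before the start, and 12.9% of the 33469 promoters in the table hold them over the same length. The letters GGGCGG were found before the second start site of Igf2, at 129 to 124 bases, and before that of Igfbp2, at 66 to 61 bases, against 30.5% of all promoters. Neither CCAAT, held by 34.0% of all promoters, nor TGANTCA, held by 6.34%, was found in any of these windows. The share of G and C in the 250 bases was 62.4% and 63.6% for Igf2, 68.8% for Igfbp4, 51.6% for Igfbp5, 54.8% for Igfbp6 and 64.0% for Igfbp2, beside a median of 51.2% over all promoters.

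Igf2, the ligand, was low in every line. Averaged over its 2 spots, its log2 ratio was -3.56 and -3.20 on the arrays of JA, -3.09 and -2.95 on those of JB and -3.68 and -3.93 on those of Amy, with the line in Cy3 given first. JB was the least low and Amy the lowest in both orientations, and these array means did not overlap between lines, with JA lying between the others. Single spots of JA and JB did overlap. On the second spot JA read -3.03 in Cy5, above JB at -3.15 in Cy3 and -3.07 in Cy5. The mean was -3.40 ± 0.39 (SD, n = 3 lines), or a level 10.6-fold lower than in the mix. Its spots differed by at most 0.33 on any array, and the dye orientation moved the mean of the lines by 0.08, a shift that 83.1% of the 7180 features on the array equaled or exceeded. That small mean came from shifts of opposite sign. The Cy5 array minus the Cy3 array was 0.36 in JA, 0.15 in JB and -0.26 in Amy.

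Igfbp6, a binding protein known for its preference for Igf2 over Igf1, had the lowest ratio of the 4. It stood at -5.61 and -5.71 in JA, at -4.71 and -5.04 in JB and at -6.00 and -6.26 in Amy (line in Cy3, then in Cy5). As for Igf2, JB was the least low, Amy was the lowest, and the array means of the 3 lines did not overlap. The mean of -5.55 ± 0.63 (SD, n = 3 lines) is a 47.0-fold lower level, the 10th lowest among 3158 named genes. This clone was also the most even, with a gap between spots of at most 0.21 on any array.

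Igfbp4, a binding protein that is cut by the protease of the gene Pappa when growth factor is bound, was the least even. Its ratios were -4.09 and -5.25 in JA, -4.44 and -3.72 in JB and -3.69 and -4.74 in Amy. The arrays of the 3 lines overlapped, so no order of the lines can be given. On the JA array with the line in Cy5 its spots read -3.54 and -6.97, a gap of 3.43 that 0.558% of all clones reached on that array. The mean of all 6 arrays was -4.32 ± 0.31 (SD, n = 3 lines), 20.0-fold lower, and without that JA array it was -4.13. The low level of Igfbp4 therefore did not rest on that spot, while its differences between lines did move with it.

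Igfbp5, which binds extracellular matrix and is known from fibroblast and bone cells, was low in every line. It stood at -3.74 and -2.70 in JA, at -4.57 and -3.43 in JB and at -2.83 and -2.38 in Amy. Within each dye orientation JB was the lowest line and Amy the least low, the reverse of Igf2 and Igfbp6. Across orientations the arrays of JB and Amy did not overlap, while those of JA overlapped both. The ratio was less negative with the line in Cy5 in all 3 lines, by 0.88 on average. A shift of that size or more was seen in 8.13% of features. The mean was -3.27 ± 0.70 (SD, n = 3 lines), 9.67-fold lower, with -3.71 as the mean of the Cy3 arrays and -2.83 as that of the Cy5 arrays.

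**Figure D1:**
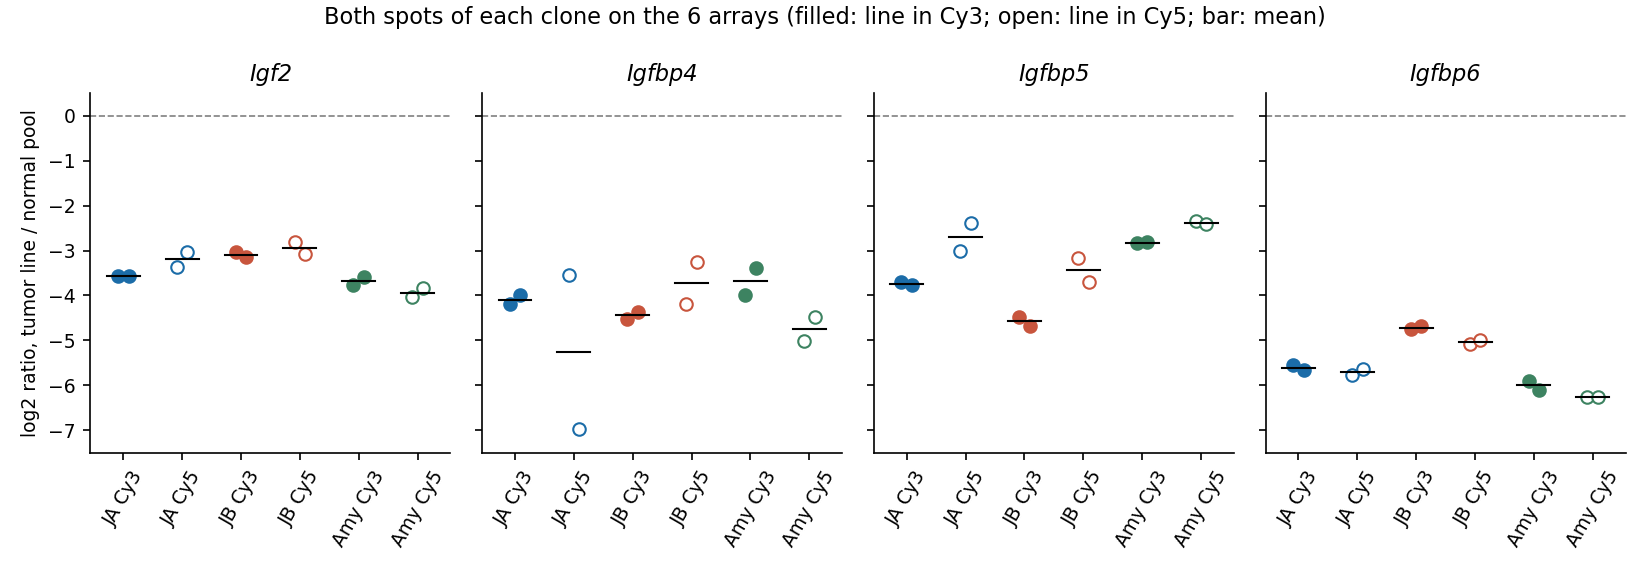
Log2 ratio of tumor line over normal mix (y axis) for both spots of each clone on the 6 arrays (x axis: line and its dye); filled points are arrays with the line in Cy3, open points arrays with it in Cy5, and the bar is the mean of the 2 spots. All 48 spot values lie below 0, and the widest gap between spots is that of Igfbp4 on the JA array in Cy5, at -3.54 and -6.97.

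All 4 genes were at -2 or lower on all 6 arrays, a depth that 3.23% of the 7180 features and 121 of the 3158 named genes reached. By rank from the lowest mean, Igfbp6 was 10th, Igfbp4 37th, Igf2 73rd and Igfbp5 82nd of the named genes. These ranks restate how the genes were chosen and are not evidence about the family.

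**Figure D2:**
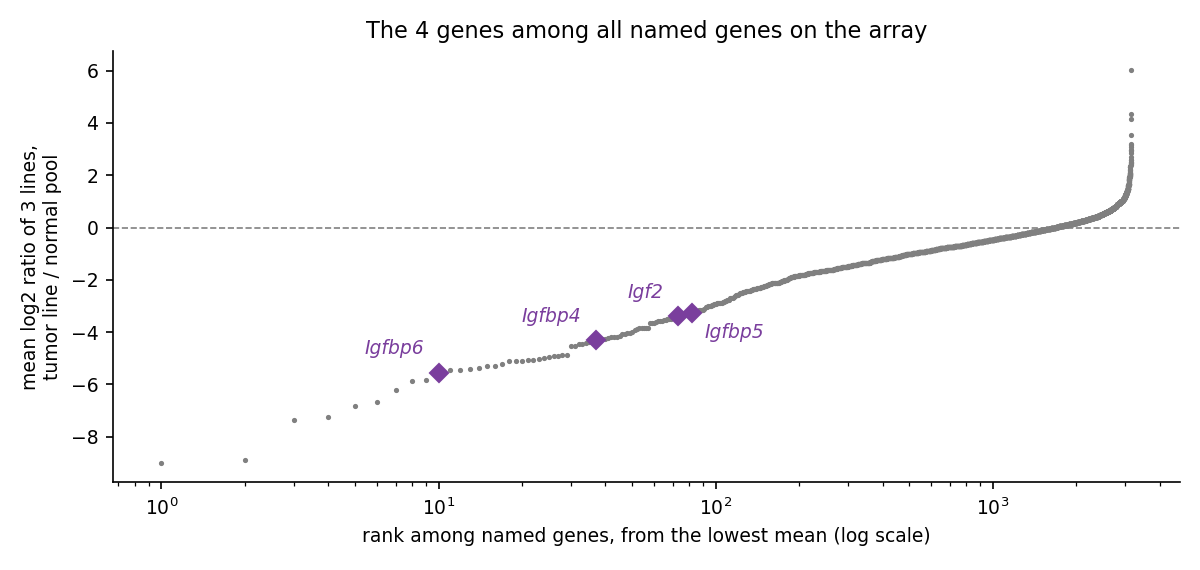
Mean log2 ratio over the 3 lines (y axis) against rank from the lowest (x axis, log scale) for all 3158 named genes; diamonds mark the 4 genes. They lie between -5.55 and -3.27, in the low tail.

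The choice of the genes used the mean over lines, not the differences between lines, which were compared next. With 1 replicate per line there is no test, and a difference was counted where it was at least 1 on the log2 scale with 1 sign in both dye orientations. Between JB and Amy, 2 of the 4 genes reached it, in opposite directions, while 4.19% of all features did. That share covers features of every depth, and spots of clones as low as these differ more from each other. Igfbp5 was lower in JB than in Amy by 1.74 with the lines in Cy3 and by 1.06 in Cy5. Igfbp6 was higher in JB than in Amy by 1.29 and 1.22. Igf2 went the way of Igfbp6, with JB above Amy by 0.58 and 0.99, short of the limit. Between JA and JB none of the 4 reached it (3.68% of features did), nor between JA and Amy (1.56%).

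JA lay between JB and Amy for Igf2, Igfbp5 and Igfbp6 in both orientations. Of the 12 differences between lines over the 4 genes, 10 had 1 sign in both orientations. The share of all features with such agreement was not counted, and the differences of a gene depend on each other. The count therefore shows nothing particular to these genes. The exceptions were those of Igfbp4 between JB and the other lines. For that gene JB was the lowest line with the lines in Cy3, 0.37 below their mean, and the highest in Cy5, 0.85 above it. The top place of JB depended on the spots averaged. On the first spot alone the Cy5 values were -3.54 in JA, -4.18 in JB and -5.01 in Amy. JA lay above JB there in Cy3 too, at -4.19 against -4.52. The range over lines was 1.40 for Igfbp5, 1.25 for Igfbp6, 0.79 for Igf2 and 0.59 for Igfbp4. That order changed within each orientation. Over the Cy3 arrays the range was 1.74 for Igfbp5, 1.29 for Igfbp6, 0.76 for Igfbp4 and 0.58 for Igf2. Over the Cy5 arrays it was 1.54 for Igfbp4, 1.22 for Igfbp6, 1.06 for Igfbp5 and 0.99 for Igf2. A range as large as that of Igfbp5 was found in 4.67% of features and one as large as that of Igfbp6 in 6.62%, against 20.2% for Igf2 and 33.9% for Igfbp4. The median range was 0.44 over all features and 0.53 over the 121 named genes at -2 or lower on all arrays.

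**Figure D3:**
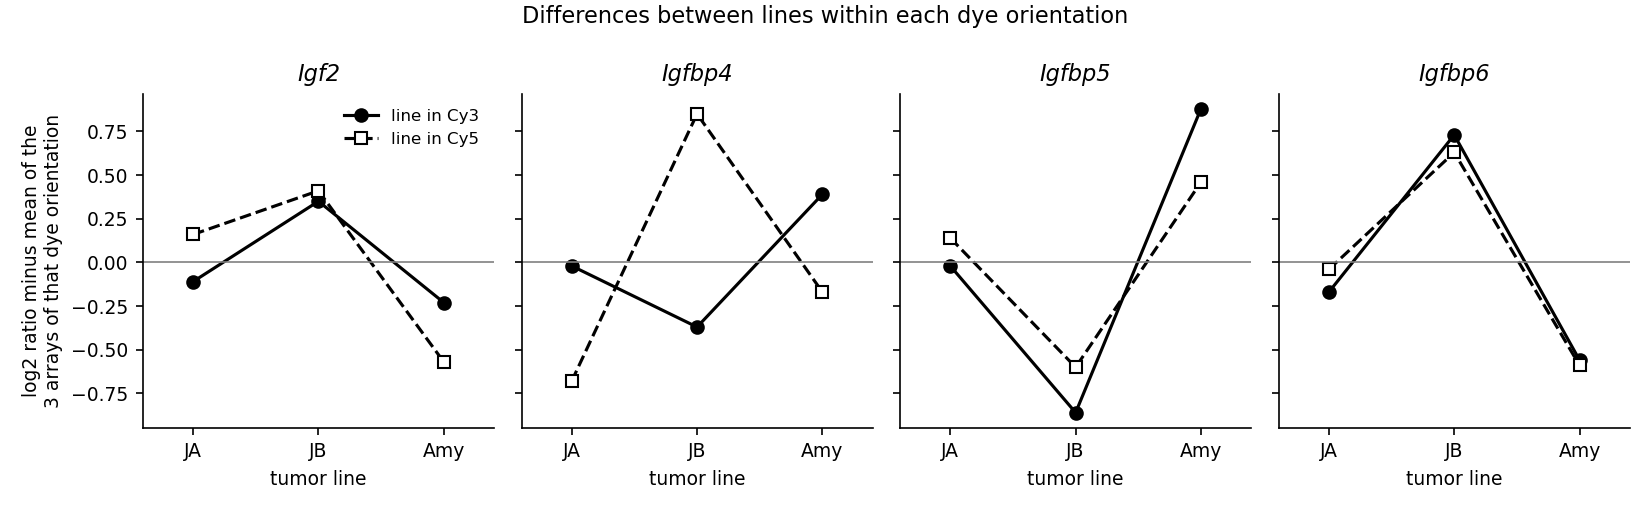
Log2 ratio of each line minus the mean of the 3 arrays of the same dye orientation (y axis) for the lines JA, JB and Amy (x axis); filled circles and solid lines are arrays with the line in Cy3, open squares and dashed lines those in Cy5. JB lies highest for Igf2 and Igfbp6 and lowest for Igfbp5 in both orientations, and for Igfbp4 the orientations disagree.

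The other genes of the IGF axis were read from a list of 82 symbols, 78 of them besides these 4, of which 21 were measured. Their mean over the 3 lines was tested against 0 with limma, adjusted by Benjamini-Hochberg over all 7180 features. At an adjusted p under 0.05, 6 of the 21 were higher in the tumor lines, 8 were lower and 7 did not pass. These are 28.6% and 38.1% of the 21, near the background, since over all features 20.7% were called higher and 32.8% lower. The median of the 21 means was -0.06, beside -0.12 for all features. With each array centred on its median, 9 of the 21 (42.9%) were higher and 8 (38.1%) lower, against 25.7% and 27.6% of all features. The shares of the list were above the background in that setting, by an excess that was not tested.

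Igf1, the other ligand measured, was lower, as Igf2 had been. Its ratios were -2.97 and -2.11 in JA, -2.96 and -2.40 in JB and -2.79 and -2.38 in Amy, with a mean of -2.60 ± 0.07 (SD, n = 3 lines; limma adjusted p = 1.38e-04). The 3 lines overlapped, and each was less negative with the line in Cy5. The insulin genes and Igf1r were not among the named genes analysed here.

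The receptor Igf2r, which clears Igf2 peptide, was higher in all 3 lines. It stood at 1.67 and 1.63 in JA, 1.32 and 1.07 in JB and 1.72 and 1.82 in Amy, with JB below both other lines. Its mean was 1.54 ± 0.31 (SD, n = 3 lines; limma adjusted p = 0.00158), a 2.91-fold higher level.

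The other binding proteins did not share the low ratios of Igfbp4, Igfbp5 and Igfbp6. Those genes were chosen for low ratios, so this contrast follows in part from the choice and is given as a description. Igfbp2, a widely made binding protein, was higher at 0.75 ± 0.04 (SD, n = 3 lines; limma adjusted p = 0.00461), between 0.54 and 0.96 on all 6 arrays. Igfbp3, the main carrier in blood, stood at -0.21 ± 0.14 (adjusted p = 0.206), with its 2 clones at -0.56 (0.0338 in the fit of single clones) and 0.15 (0.321). Igfals, which encodes the subunit that completes the circulating complex, stood at 0.23 ± 0.09 (adjusted p = 0.146), and passed when arrays were centred (0.0474). Its mean was 0.41 over the Cy3 arrays and 0.05 over the Cy5 arrays, and in JA it read 0.59 in Cy3 and -0.33 in Cy5. The span of the measured binding proteins thus ran from -5.55 for Igfbp6 to 0.75 for Igfbp2.

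The measured partners of Igf2 at the RNA level moved apart. H19, the imprinted non-coding RNA beside Igf2, was lower at -4.13 and -3.73 in JA, -4.20 and -3.62 in JB and -3.94 and -3.60 in Amy. Its mean was -3.87 ± 0.09 (SD, n = 3 lines; limma adjusted p = 4.95e-05), 14.6-fold lower, and the lines overlapped. Igf2bp2, an RNA-binding protein named for its binding to Igf2 messenger RNA, was higher at 2.04 ± 0.56 (adjusted p = 0.00206). JB was its highest line, at 2.90 and 2.36, and Amy its lowest, at 1.34 and 1.72, with no overlap between the lines.

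Of the remaining list genes, the lysosomal protease Ctsd, which can cleave binding proteins in culture, was lower at -1.73 ± 0.83 (limma adjusted p = 0.00851), and the call was lost without Amy (0.0518). Ccn1, a matrix protein with a domain like that of the binding proteins, passed at -0.73 ± 0.17 (adjusted p = 0.00703), but followed the dye, with a mean of -0.14 over the Cy3 arrays (0.458) and -1.32 over the Cy5 arrays. Its call was also lost without JA (0.0564) and without the JA array in Cy5 (0.137).

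Signaling genes after the receptor went both ways, with 3 of 12 higher and 4 lower. That is near the shares over all features, 20.7% higher and 32.8% lower, so the counts show nothing particular to these genes. The kinase Map2k1 was higher at 1.58 ± 0.27 (limma adjusted p = 0.00122) with its 2 clones at 1.52 and 1.65, and the translation repressor Eif4ebp1 at 1.14 ± 0.45 (0.00701), a call lost without JA (0.0614). Lower were Grb10, an adaptor that restrains insulin and IGF receptors, at -1.85 ± 0.31 (0.000948), and the phosphoinositide kinase subunits Pik3r1 at -1.22 ± 0.23 (0.00207) and Pik3ca at -0.94 ± 0.13 (0.00296). The spots of Grb10 were uneven, running from -2.86 to -0.18, while its array means ran from -2.63 to -1.32. Akt2 and Rps6kb1 passed at -0.51 ± 0.12 (0.0189) and 0.35 ± 0.04 (0.0454). Neither call held without JA (0.104 and 0.165) or without Amy (0.0589 and 0.144), and that of Rps6kb1 was also lost without JB (0.0889). Both followed the dye: Akt2 stood at -0.29 over the Cy3 arrays (0.122) and -0.72 over the Cy5 arrays, and Rps6kb1 at 0.56 over the Cy3 arrays and 0.15 over the Cy5 arrays (0.377). Leaving out single arrays ended the call of Akt2 for JA in Cy5 (0.0544) and JB in Cy5 (0.0629). It ended that of Rps6kb1 for JA in Cy3 (0.167), JB in Cy3 (0.189), Amy in Cy3 (0.0737) and Amy in Cy5 (0.0615). The mean of Akt2 rested on 1 of its 5 clones, at -2.60 (limma adjusted p = 0.00143 in the fit of single clones). The other 4 clones lay between -0.35 and 0.56 with a mean of 0.02, and none of them passed (adjusted p from 0.0671 to 0.77).

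**Figure D4:**
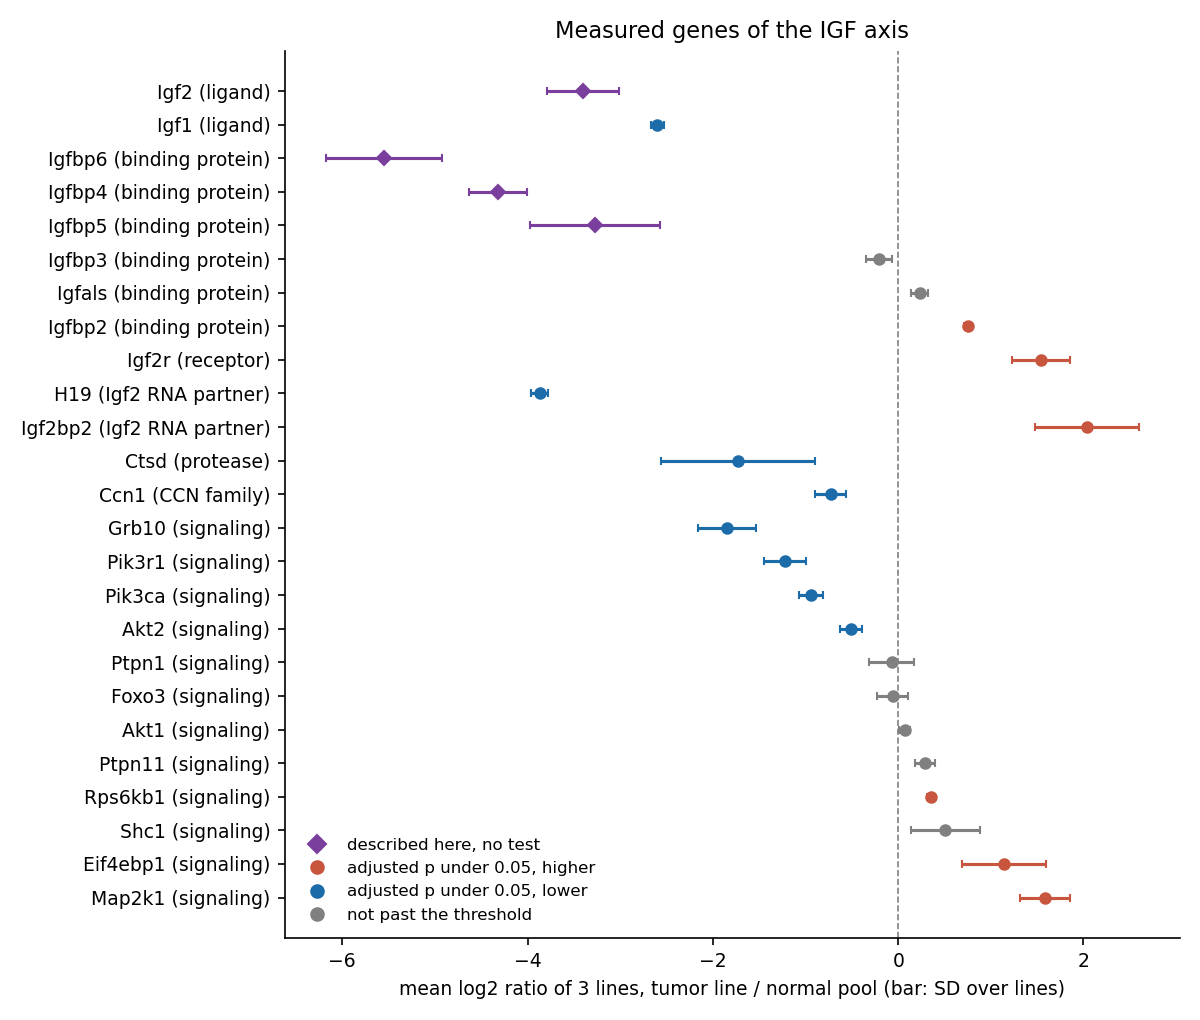
Mean log2 ratio of tumor line over normal mix (x axis) for the 25 measured genes of the IGF axis, grouped by role; points are means of 3 lines and bars are the SD over lines. Purple diamonds are the 4 genes described without a test; Igf1 at -2.60 and H19 at -3.87 lie on their side, while Igf2bp2 at 2.04 and Igf2r at 1.54 lie on the other.

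Neighbors on the chromosome were compared next, taking the 5 RefSeq genes on each side. Of the 10 neighbors of each gene, 1 was measured for Igf2, 1 for Igfbp5, 1 for Igfbp6 and none for Igfbp4. H19 lay beside Igf2 and was low with it. Igfbp2, which adjoins Igfbp5, was higher while Igfbp5 stood at -3.27. Eif4b, a translation initiation factor near Igfbp6, stood at 0.47 ± 0.38 (SD, n = 3 lines; limma adjusted p = 0.0737).

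The named genes most like each of the 4 were found as those with the smallest root mean square difference in log2 ratio over the 6 arrays, which share the mix and the dyes. For Igf2 these were Olfml2b, Tceal9 and Lrrc20, at differences of 0.29, 0.30 and 0.30. Igfbp6 was nearest to Nbl1, a secreted antagonist of bone morphogenetic proteins, at 0.37, then to the MHC class II gene RT1-Ba at 0.50 and the ectonucleotidase Entpd1 at 0.58. The genes closest to Igfbp4 were the coreceptor Cd4 at 0.40, the actin-severing protein Gsn at 0.54 and the matrix protein Mgp at 0.54. Those closest to Igfbp5 were the matrix protein Smoc2 at 0.47, the growth factor Egf at 0.53 and the junction protein Jam3 at 0.59. Among themselves the 4 genes were farther apart, from 0.99 between Igf2 and Igfbp5 to 2.59 between Igfbp5 and Igfbp6. The nearest genes are the smallest differences picked from all named genes, so they are bound to be close. The comparison therefore does not show whether the 4 genes behave alike.

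Most measured markers of other cell types were lower, the direction of the 4 genes, beside 32.8% of all features called lower. All 9 measured of 15 fibroblast markers were lower (limma adjusted p under 0.05), with means from -9.00 to -1.34 and a median of -4.18; the lowest were Dcn at -9.00, Col1a2 at -8.90 and Col3a1 at -5.39. Of 9 measured leukocyte markers 8 were lower and 1, Tyrobp, was higher at 0.67 (the lowest stood at -5.22). All 4 muscle and 3 endothelial markers measured were lower too (medians -3.68 and -1.53). Of the squamous epithelial markers of esophagus, 2 of 11 were measured, both lower (-5.82 and -0.68), and the simple epithelial keratin Krt8 stood at 0.41 (adjusted p = 0.111). With the direction taken here, low ratios place the mix above the lines, but they give no level in the mix itself. Its labelled esophageal origin was not tested, nor was the part of these cell types in the low ratios of Igf2 and the binding proteins.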

How the data were processed

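Two-colour cDNA arrays gave 1 log ratio per spot. The deposited values were used as log2 ratios; neither the labels nor the files state base, scanner, background correction or normalization, which are not given in the sources used here. The lowest value, -12.7, would exceed a scanner's range in another base. Of 16128 spots, 8084 carried 1 gene symbol. A feature was a gene (mean of its spots) or a clone of 2 spots without a single symbol. The arrays of each line were averaged, which cancels the dye, and the 3 lines were tested against 0 with limma 3.58.1 in R 4.3.3 (two-sided, Benjamini-Hochberg over 7180 features, threshold 0.05, no filter). The mix counts as 1 sample whose own spread is left out. A p-value sets the mean of the 3 lines against their spread.

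The replicate number is the dye orientation per the labels; the difference between orientations correlated at 0.526 to 0.613 between lines, so the numbers pair the arrays. The members and lists were chosen with earlier results of these data known. The text names all 4 members, list genes that passed or are ligands, receptors or binding proteins, measured neighbors, the 3 most alike genes per member and the 3 lowest fibroblast markers; other markers named were added after their values were seen. Alternatives were centring, quantile normalization, single orientations, lines, arrays, spots and clones, a spread for the mix and named genes alone. A further alternative used the line as a block with a term for the dye. Promoters came from RefSeq (GRCr8), and figures from matplotlib 3.10.9.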

Additional observations from a re-analysis of the deposited data

How the results depend on the processing

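The means of Igf2, Igfbp4, Igfbp5 and Igfbp6 moved by less than 1 SD over lines under all 16 alternatives run for them. They stayed within -3.59 to -3.20, -4.57 to -4.07, -3.71 to -2.83 and -5.89 to -5.27. For some of the 16 this was fixed in advance. Leaving out 1 of 3 lines cannot move a mean by 1 SD, and the line block returns the same mean. Each had 1 clone, so clones could not be compared. The range over lines of Igfbp4, 0.59, was 1.54 over the Cy5 arrays and 1.68 on the second spot alone; that of Igfbp6, 1.25, was 1.18 after quantile normalization, 1.16 on the first spot and 1.35 on the second (single spots were tried after seeing the data). The 1487 features called higher and 2356 called lower became 733 and 1011 with named genes alone, where fewer features are tested, and 667 and 1303 with a spread for the mix. Leaving out lines or arrays gave 709 to 1448 higher and 1367 to 2301 lower, the lowest without JA. With the line as a replicate block and a term for the dye, the counts were 1557 and 2356. In that setting none of the 16 list genes named in the text changed its call. Over 17 alternatives 4 to 9 list genes were called higher and 6 to 10 lower, counted as clones in the clone fit. With a spread for the mix the calls of Ctsd, Akt2 and Rps6kb1 were lost. By line means, none of the 3 genes most like Igfbp5 was the same. The number of lines limits the precision.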
